A study of Mus musculus with 4 samples.

Results

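The cerebral cavernous malformation (CCM) complex was followed through 9 genes of 22063 in the deposited count table: Pdcd10, Krit1 and Ccm2, the kinase genes Stk24, Stk25, Stk26 and Map3k3, and the transcription factor genes Klf2 and Klf4. They were chosen by gene symbol, starting from Pdcd10, which an earlier comparison of these same libraries had picked out as higher after norepinephrine. The differences of the 9 genes between the groups are therefore given as a description, without a p-value. Each symbol stood beside a single identifier, and 8 of the 9 had enough counts to enter the fit over all genes. Stk26 did not.

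RNA was sequenced from C22, an immortalized wild type line derived from mouse Club cells, which line the airways and secrete protective proteins. In 2 libraries the cells had been exposed for 3 h to 10 µM norepinephrine (NE), a transmitter of sympathetic nerves, and in the other 2 to vehicle alone over an equal period. All cells were grown in DMEM with fetal bovine serum, and the line stands for Club cells only as far as it keeps their genes. The labels do not say that replicates were separate cultures, so the spread between libraries may be technical.

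KRIT1, CCM2 and PDCD10 are the products of the genes mutated in familial cerebral cavernous malformations, a disease of leaky brain capillaries. KRIT1 binds CCM2, CCM2 binds PDCD10 and also the kinase MEKK3 (the product of Map3k3), and in endothelial cells the complex restrains MEKK3, which signals through MEK5, ERK5 and MEF2 factors to raise KLF2 and KLF4. PDCD10 has another home outside this complex: it dimerizes with the germinal centre kinases STK24, STK25 and STK26 and ties them to STRIPAK, an assembly built around striatins and protein phosphatase 2A. Most of this is known from endothelium, not from airway epithelium.

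Upstream sequence is shown for Pdcd10, on which the set is built, for Stk25, whose window shares a short word with it, and for Klf2, the end point of the MEKK3 cascade. The windows are the 250 bases before the annotated start, from RefSeq on GRCm38.p6, whereas the counts were made on GRCm39, and they were matched by symbol for 8 of the 9 genes, all but Stk24. Krit1 and Ccm2 have 2 windows each, and both were searched. Each sequence is written 5′ to 3′ on the strand of its gene. In the Pdcd10 window (chr3:75556853-75557102, minus strand) and the Stk25 window (chr1:93635728-93635977, minus strand), capitals mark the word ACTACA on either strand. In the Klf2 window (chr8:72318812-72319061, plus strand), capitals mark a MEF2 consensus site.
Pdcd10: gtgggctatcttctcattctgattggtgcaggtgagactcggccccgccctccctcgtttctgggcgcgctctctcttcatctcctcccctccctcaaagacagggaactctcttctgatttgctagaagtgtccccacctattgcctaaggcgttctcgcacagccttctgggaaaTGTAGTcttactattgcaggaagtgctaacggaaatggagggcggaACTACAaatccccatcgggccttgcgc
Stk25: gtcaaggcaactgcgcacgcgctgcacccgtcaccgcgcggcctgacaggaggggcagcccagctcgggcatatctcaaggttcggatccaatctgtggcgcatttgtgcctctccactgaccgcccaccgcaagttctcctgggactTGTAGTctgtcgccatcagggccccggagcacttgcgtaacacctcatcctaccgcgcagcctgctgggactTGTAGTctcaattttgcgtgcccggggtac
Klf2: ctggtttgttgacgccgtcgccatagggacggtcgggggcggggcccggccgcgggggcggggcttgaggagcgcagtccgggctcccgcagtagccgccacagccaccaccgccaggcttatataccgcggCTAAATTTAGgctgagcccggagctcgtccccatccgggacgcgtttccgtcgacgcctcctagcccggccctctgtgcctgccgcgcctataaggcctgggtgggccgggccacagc

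The word ACTACA began 73 and 27 bases before the start of Pdcd10 and 102 and 30 bases before that of Stk25. It was picked after these windows were read, and 8.92% of 32851 promoter windows of this length held it on either strand. The windows of Krit1, Ccm2, Map3k3, Stk26, Klf2 and Klf4 did not. A MEF2 consensus site, held by 2.92% of all windows, lay 118 bases before the start of Klf2 and in no other of the 8 genes' windows. The word TGACG from the cAMP response element was found on either strand in the windows of Stk25, Klf2 and Klf4 (17.8% of all windows) and the full element TGACGTCA, which contains that word, in none of the 8 genes' windows (1.55%). The GC box GGGCGG occurred in the windows of Pdcd10, Stk25, Stk26, Klf2 and Klf4 and in 1 of the 2 windows of Ccm2 (32.7%). These are matches of letters and not measured binding.

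Total counts were 15657173 and 18491334 in the NE libraries and 14820258 and 14783176 in the vehicle libraries. Comparing libraries pairwise, chi-square divided by its degrees of freedom lay between 4.53 and 13.4, so no library was a copy of another. Of 11419 genes tested, 39 were called higher and 140 lower in NE (edgeR quasi-likelihood test, Benjamini-Hochberg adjusted p under 0.05), 1.57% of the genes in either direction, 0.342% higher and 1.23% lower. Scaling by total counts alone gave 12 higher and 120 lower genes. The median log2 fold change of all tested genes was 0.00 to 2 decimals.

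Few genes of mature Club cells were found. Of 12 Club cell markers, 7 had 0 counts in every library, among them Scgb3a2 and Cyp2f2, and 3 could be tested. Summed over the markers, the NE libraries held 776.4 and 791.9 CPM (counts relative to scaled library size) and the vehicle libraries 962.2 and 770.3 CPM, nearly all of it Aldh1a1. Since the CCM complex is best known from endothelium, endothelial markers were read too. Of 16, 6 had 0 counts, among them Erg, Tie1 and Emcn, and the adhesion genes Pecam1 and Cdh5 stayed under 0.4 CPM in every library. Their sum was 51.8 and 46.3 CPM in NE and 59.1 and 65.2 CPM in vehicle, most of it Flt1 and Eng. Eng, a co-receptor of BMP signals that was singled out after its values were seen, was lower in NE (15.6 and 11.9 CPM in NE, 19.5 and 22.9 CPM in vehicle, log2 fold change -0.63 ± 0.15 SE, edgeR adjusted p = 0.0431). Its part in the results below was not tested. Among epithelial markers (sums of 1514 and 1585 CPM in NE, 1402 and 1529 CPM in vehicle) Krt8 and Krt18 were abundant. Epcam had 0 counts, and Cdh1 had 1 and 4 counts in NE and 13 and 0 counts in vehicle. Fibroblast markers summed to 4466 and 4534 CPM in NE and to 5342 and 4541 CPM in vehicle. They were led by Vim and Col1a1, while Thy1 had 0 counts. Leukocyte markers summed to 11.98 and 15.02 CPM in NE and to 5.38 and 15.3 CPM in vehicle. None of these was called apart from Eng. In bulk RNA, fewer cells of a kind and less RNA per cell cannot be told apart.

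The C22 cells carried transcripts of the whole CCM core and, in quantity, of 2 of the 3 kinases that pair with PDCD10. To compare genes, CPM was divided by the length of the longest annotated coding transcript in kb. Klf4, a factor also known from epithelial differentiation, was at the top with 53.5 ± 2.90 CPM per kb in NE and 59.5 ± 5.43 in vehicle (SD, n = 2 each). Pdcd10 came next, with 41.1 ± 4.64 CPM per kb in NE and 30.3 ± 0.762 in vehicle. Stk24 and Ccm2 followed. Stk24 stood at 30.4 ± 1.57 CPM per kb in NE and 27.1 ± 2.14 in vehicle, and Ccm2 at 26.01 ± 0.597 in NE and 26.01 ± 0.667 in vehicle. The ranges over the 4 libraries overlapped between Pdcd10 and Stk24 and between Stk24 and Ccm2, although the order was the same in 4 of 4 libraries for both pairs.

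Lower in the order, and without overlap between neighbours, came Map3k3, Stk25, Krit1, Klf2 and Stk26. Map3k3 stood at 20.9 ± 1.12 CPM per kb in NE and 20.3 ± 0.610 in vehicle, and Stk25 at 11.2 ± 0.631 in NE and 11.7 ± 0.683 in vehicle. Krit1, the scaffold that recruits CCM2, had 8.43 ± 0.0898 CPM per kb in NE and 9.22 ± 0.578 in vehicle. Klf2, the partner of Klf4 downstream of the complex, had only 4.45 ± 0.433 CPM per kb in NE and 4.56 ± 1.47 in vehicle. Set among 11399 tested genes with a known length, Klf4 was at the 88.3rd percentile of this level, Pdcd10 at the 80.6th, Krit1 at the 42.4th and Klf2 at the 26.7th. With the union of all annotated exons as length, which came to 21853 nt for Krit1, Map3k3 came before Stk24 and Ccm2, and Klf2 before Krit1.

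**Figure D1:**
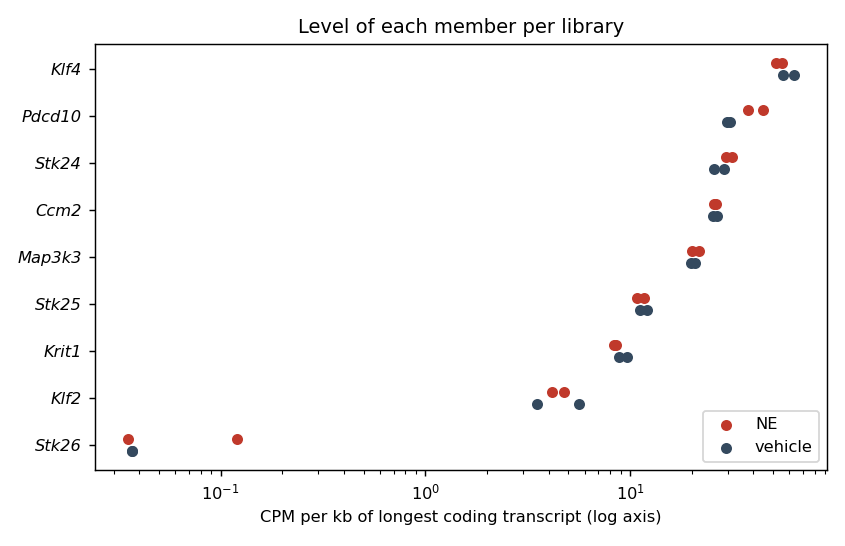
Level of each of the 9 genes in each library, as CPM per kb of the longest coding transcript on a log axis, with NE libraries in red above and vehicle libraries in dark blue below. Klf4 and Pdcd10 lead, Krit1 and Klf2 are low among the transcripts found in quantity, and Stk26 lies at or under 0.120 CPM per kb.

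Among the core members, Pdcd10 was the gene that had been picked for being higher in NE. Its counts were 1138 and 1566 in the NE libraries, against 854 and 886 in the vehicle libraries. As CPM it held 72.9 and 85.6 in NE and 57.4 and 59.5 in vehicle. Both NE libraries lay above both vehicle libraries, and the second NE library, the deepest of the 4, was the highest. The fit over all genes gave a log2 fold change of 0.44 ± 0.087 (SE, 95% interval 0.26 to 0.62). Of the 8991 tested genes averaging 10 CPM or more, 28 had a log2 fold change at least this large, Pdcd10 included. Since Pdcd10 was picked for this difference, nothing is read from that rank. Without the second NE library the log2 fold change of Pdcd10 was 0.32, and without the first NE library 0.55.

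Pdcd10 is also a short transcript (1927 nt, against a median of 3193 nt over tested genes), and the libraries differed in how level changed with length. The slope of log2(CPM + 1) per doubling of length was 0.242 and 0.205 in the NE libraries and 0.281 and 0.282 in the vehicle libraries, so the increase with length was shallower in NE, most of all in the second library. With each library's length trend removed, the log2 fold change of Pdcd10 was 0.40 (95% interval 0.23 to 0.57). Over the 12 alternative settings it ran from 0.32 to 0.55.

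**Figure D2:**
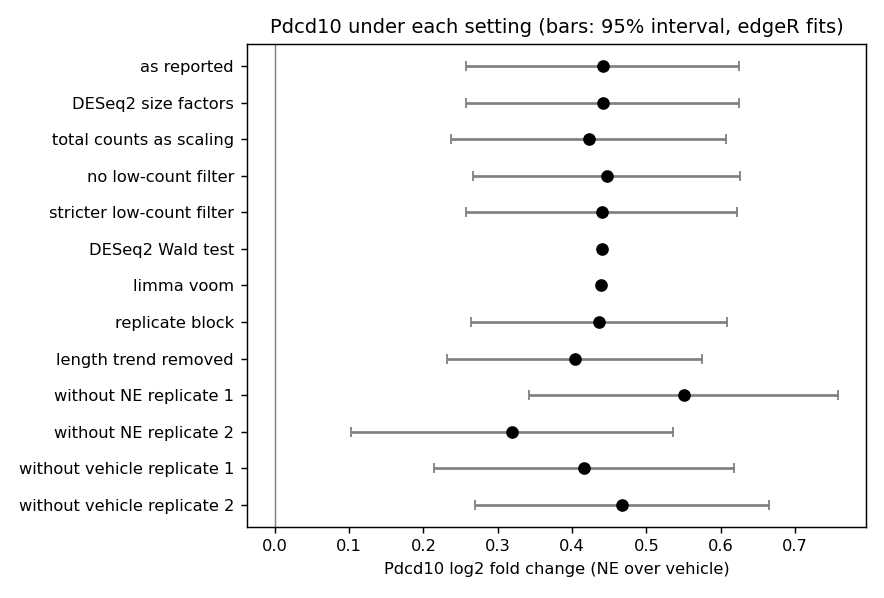
Log2 fold change of Pdcd10 (NE over vehicle, x axis) as reported and under each of 12 alternative settings (rows), with bars for 95% intervals where edgeR was used. The values lie between 0.32 and 0.55, the lowest without NE replicate 2 and the highest without NE replicate 1.

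Krit1 and Ccm2, the other core genes, lay closer together between the groups. Krit1 held 46.7 and 47.4 CPM in NE and 53.8 and 49.2 CPM in vehicle. Both NE libraries were below both vehicle libraries, by little: the log2 fold change was -0.13 ± 0.089 (95% interval -0.32 to 0.06). Ccm2, the adaptor between KRIT1 and PDCD10, held 47.5 and 49.1 CPM in NE and 47.5 and 49.2 CPM in vehicle. The groups of Ccm2 overlapped almost entirely (log2 fold change 0.00 ± 0.087, 95% interval -0.18 to 0.18). Within each library, the level of Pdcd10 per kb was 1.48 and 1.68 times that of Ccm2 in NE and 1.17 and 1.17 times in vehicle. Against Krit1 it was 4.52 and 5.23 times in NE and 3.09 and 3.50 times in vehicle. The size of both ratios depends on the length used. With the union of exons, mean levels were 23.4 CPM per kb for Pdcd10, 2.25 for Krit1 and 13.2 for Ccm2. The difference of both ratios between the groups contains that of Pdcd10, for which the gene was picked. Krit1 stood at 0.327 and 0.321 times Ccm2 in NE and at 0.377 and 0.333 times in vehicle. This ratio depends on the length used as well.

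The kinases that pair with PDCD10 were present as Stk24 and Stk25. Stk24 (MST3) held 84.5 and 78.5 CPM in NE and 68.5 and 76.6 CPM in vehicle. The groups did not overlap, with a gap between the second library of each that was smaller than the spread within either group, and the log2 fold change was 0.17 ± 0.080 (95% interval -0.00 to 0.34). Stk25 held 45.8 and 49.6 CPM in NE and 47.5 and 51.6 CPM in vehicle. Its groups overlapped (log2 fold change -0.05 ± 0.091, 95% interval -0.25 to 0.14). Exons of Stk25 overlap those of Farp2 over 1013 bases on the opposite strand in the GENCODE annotation, and with no strand setting stated its reads cannot be told from those of Farp2 there. Stk26 (MST4) had 2 and 8 counts in NE and 2 and 2 counts in vehicle. That is at or under 3 counts, the most that a count of 0 allows, in 3 of 4 libraries, so no fold change is given. Of the summed level of the 3 kinases per kb, Stk24 made up 74.5% and 71.3% in NE and 69.5% and 70.1% in vehicle. Stk26 made up at most 0.292% in any library. These shares depend on the length used. With the union of exons, mean levels were 14.4 CPM per kb for Stk24 and 8.37 for Stk25.

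Map3k3, the kinase that the complex holds back, held 74.9 and 69.4 CPM in NE and 71.6 and 68.6 CPM in vehicle. The groups overlapped, with a log2 fold change of 0.04 ± 0.078 (95% interval -0.12 to 0.21). Klf4 held 168.1 and 155.7 CPM in NE and 191.9 and 168.6 CPM in vehicle. The first NE library and the second vehicle library were almost level, and the log2 fold change was -0.16 ± 0.077 (95% interval -0.32 to 0.01). Without the second vehicle library it was -0.25, and without the first -0.06. Klf2 held 8.78 and 7.65 CPM in NE and 10.4 and 6.51 CPM in vehicle. Here the vehicle libraries bracketed both NE libraries (log2 fold change -0.04 ± 0.22, 95% interval -0.50 to 0.42), and the direction rested on a single vehicle library: it was 0.33 without the first and -0.34 without the second.

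**Figure D3:**
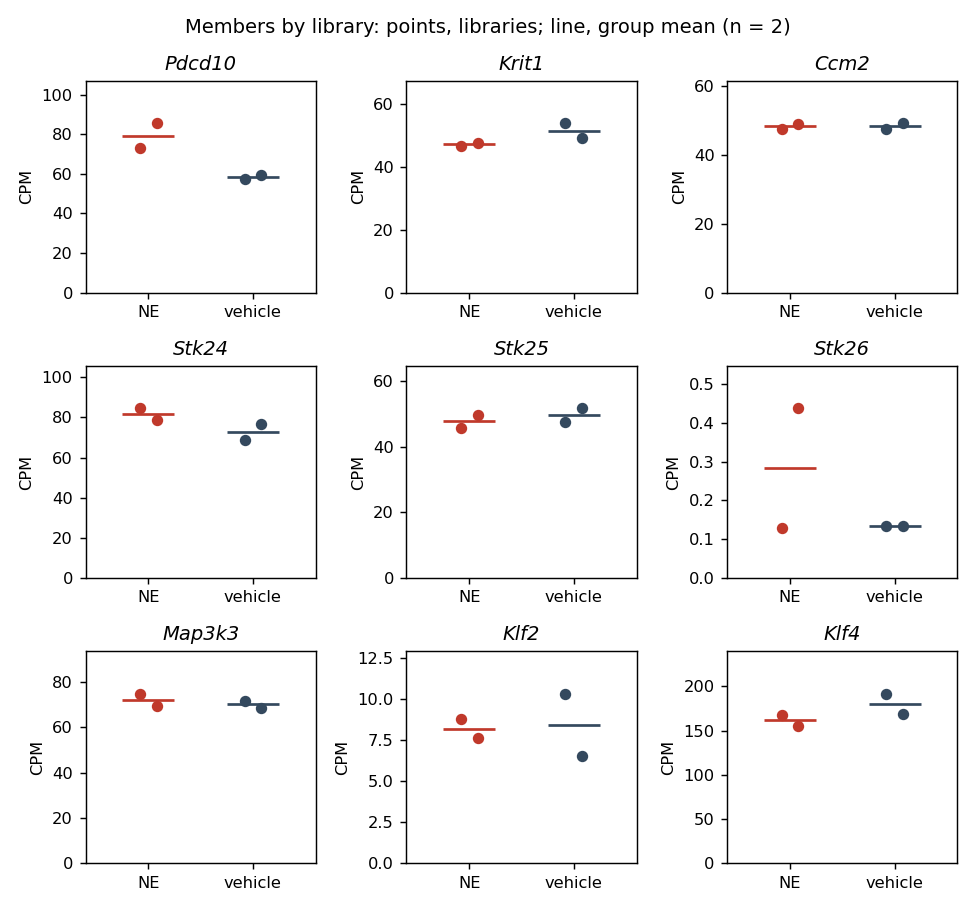
CPM of the 9 genes in each library (y axes start at 0), with NE in red on the left and vehicle in dark blue on the right, points for libraries and lines for group means (n = 2). Pdcd10, which was chosen from this comparison, shows the widest gap between groups, while Ccm2, Stk25, Map3k3 and Klf2 overlap. Each panel has its own y scale, and Stk26 holds at most 0.437 CPM in any library.

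Of the 8 tested genes 4 had a positive and 4 a negative log2 fold change, with a median of -0.02, where 50% of all tested genes were positive. In 4 of them, Pdcd10, Krit1, Stk24 and Klf4, the libraries of the groups did not overlap, beside 49.2% of all tested genes. NE was the higher group in Pdcd10 and Stk24, an arrangement found in 24.6% of all tested genes. By the fit over all genes 1 of the 8 was called, Pdcd10 itself, beside 1.57% of all genes. It was not called without the second NE library or with the length trend removed. Since Pdcd10 was chosen from this comparison, nothing is read from that count.

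**Figure D4:**
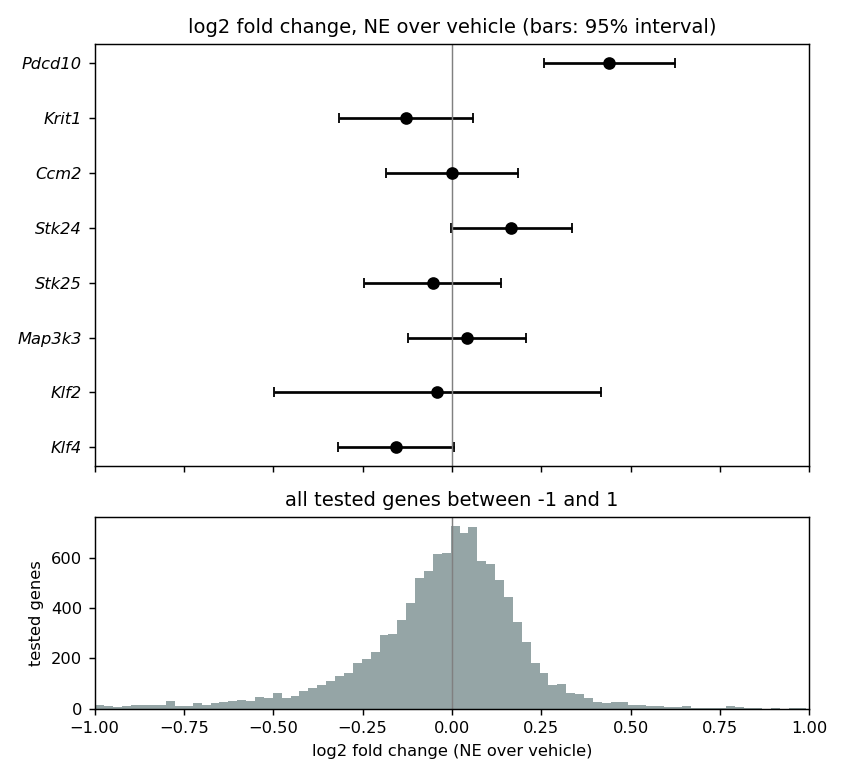
Log2 fold changes (NE over vehicle) of the 8 tested genes with 95% intervals above, and the distribution of all tested genes between -1 and 1 below. Pdcd10, which was chosen from this comparison, stands at 0.44, and the other 7 genes lie between -0.16 and 0.17.

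The closest neighbour of Pdcd10 was expressed at a low level. Serpini1, which encodes the serine protease inhibitor neuroserpin, starts on the opposite strand with 640 bases between the RefSeq starts on GRCm38.p6. It held only 2.37 and 3.55 CPM in NE and 2.69 and 3.83 CPM in vehicle. Its groups overlapped, and the log2 fold change was -0.13 ± 0.33, with a wide interval (-0.82 to 0.56). On the other side RefSeq lists the pseudogene Gm17836, which was not analysed here.

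Genes whose libraries followed the pattern of Pdcd10 most closely were sought among 8990 other tested genes averaging 10 CPM or more, by the Euclidean distance between log2 CPM profiles over the 4 libraries, each taken relative to its vehicle mean. The nearest were Lrrk2 (distance 0.0723), which encodes a large kinase linked to Parkinson's disease, the carbonyl reductase gene Cbr3 (0.110), the lysine methyltransferase genes Vcpkmt (0.126) and Eef1akmt2 (0.126), and the Mediator subunit gene Med6 (0.129). Lrrk2 held 16.5 and 18.4 CPM in NE and 12.3 and 13.3 CPM in vehicle. With 4 libraries many genes come close to any profile, and likeness here carries no test. Neither control gene was called, with a log2 fold change of -0.08 ± 0.079 for Actb (edgeR adjusted p = 0.644) and of 0.06 ± 0.071 for Gapdh (edgeR adjusted p = 0.722).

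Around the 9 genes, 65 further genes of the pathway were listed in 6 groups. Of these 51 could be tested, and 0 were called higher and 0 lower by edgeR, beside 1.57% of all genes. DESeq2 and limma voom also called 0. Before adjustment, 13 of the 51 had a p under 0.05 in edgeR, beside 17.3% of all tested genes. In all, 22 were positive and 29 negative, with a median log2 fold change of -0.06.

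Of 8 genes that act upstream of the complex or at the membrane, 6 could be tested, with a median log2 fold change of 0.09, and 4 were positive. Itgb1bp1, which encodes ICAP1, a KRIT1 partner that holds integrin beta1 inactive, held 31.7 and 33.0 CPM in NE and 25.9 and 24.7 CPM in vehicle. The groups were well separated, but the gene was not called (log2 fold change 0.36 ± 0.10, edgeR adjusted p = 0.0823). Rap1b, a small GTPase that brings KRIT1 to junctions, stood at 0.20 ± 0.069 (adjusted p = 0.137) and Heg1, the transmembrane receptor of KRIT1, at -0.17 ± 0.067 (adjusted p = 0.196). Heg1 was abundant for a gene best known from endothelium, with 608.0 and 581.5 CPM in NE and 654.9 and 683.8 CPM in vehicle. The CCM2 paralogue Ccm2l had 0 counts in every library.

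Of 18 STRIPAK genes, 16 had enough counts to be tested, 8 positive and 8 negative (median 0.00). Ppp2ca, the catalytic subunit of protein phosphatase 2A, held 511.7 and 537.4 CPM in NE and 441.2 and 471.7 CPM in vehicle (log2 fold change 0.20 ± 0.068, edgeR adjusted p = 0.137). The striatin-bound adaptor gene Mob4 stood at 0.19 ± 0.080 (adjusted p = 0.241) and Cttnbp2nl, a cortactin-binding component, at -0.35 ± 0.12 (adjusted p = 0.152). The 3 striatin genes Strn, Strn3 and Strn4 had log2 fold changes of 0.06, 0.12 and -0.09. Among 8 partners and substrates of the kinases, all tested, 3 were positive and 5 negative (median -0.06). Golga2, which encodes the Golgi anchor GM130, stood at -0.20 ± 0.070 (adjusted p = 0.150), the ezrin gene Ezr at -0.11 ± 0.066 (adjusted p = 0.407) and the radixin gene Rdx at 0.11 ± 0.066 (adjusted p = 0.415).

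Below MEKK3, the 6 genes of the MEK5, ERK5 and MEF2 cascade were all tested, 2 positive and 4 negative (median -0.15). Mapk7, the ERK5 gene, held 30.7 and 28.6 CPM in NE and 33.9 and 34.6 CPM in vehicle (log2 fold change -0.21 ± 0.099, edgeR adjusted p = 0.285). Mef2d stood at -0.17 ± 0.089 (adjusted p = 0.326) and the low-level Mef2c at -0.48 ± 0.28 (adjusted p = 0.400). Of 10 genes known in endothelium to respond to KLF2 and KLF4, 5 could be tested (2 positive, 3 negative, median -0.18). Nos3, Thbd and Wnt9b were among the 5 that could not. The list was not sorted by whether KLF2 and KLF4 raise or lower a gene, so its signs and median give no common direction. Thbs1, which encodes the matrix protein thrombospondin and is lowered by KLF2 and KLF4 in endothelium, held 200.9 and 155.9 CPM in NE and 252.2 and 205.6 CPM in vehicle. Its libraries did not overlap by a narrow gap, and it was not called (-0.36 ± 0.11, adjusted p = 0.0888). Without the second vehicle library, which left the higher vehicle library alone in its group, the value was -0.50. The water channel gene Aqp1 stood at 0.51 ± 0.18 (adjusted p = 0.162), with 42.8 and 51.0 CPM in NE and 23.0 and 43.0 CPM in vehicle. The first vehicle library alone was low. Without the second, that low library stood alone for vehicle and the value was 1.03. Adamts5, a protease that cleaves versican, stood at -0.70 ± 0.38 (adjusted p = 0.354).

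Of 15 other Klf genes 10 were tested, 3 positive and 7 negative (median -0.08). Klf6 stood at -0.22 ± 0.086 (edgeR adjusted p = 0.201), Klf7 at -0.25 ± 0.11 (adjusted p = 0.264) and Klf3 at -0.16 ± 0.079 (adjusted p = 0.311). Exons of Itgb1bp1, Heg1, Ppp2ca, Cttnbp2nl, Golga2, Ezr, Mapk7, Mef2d, Thbs1, Klf3, Klf7, Eng and Krt8 overlap those of another gene in the GENCODE annotation, so their values are uncertain where strand is unknown.

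**Figure D5:**
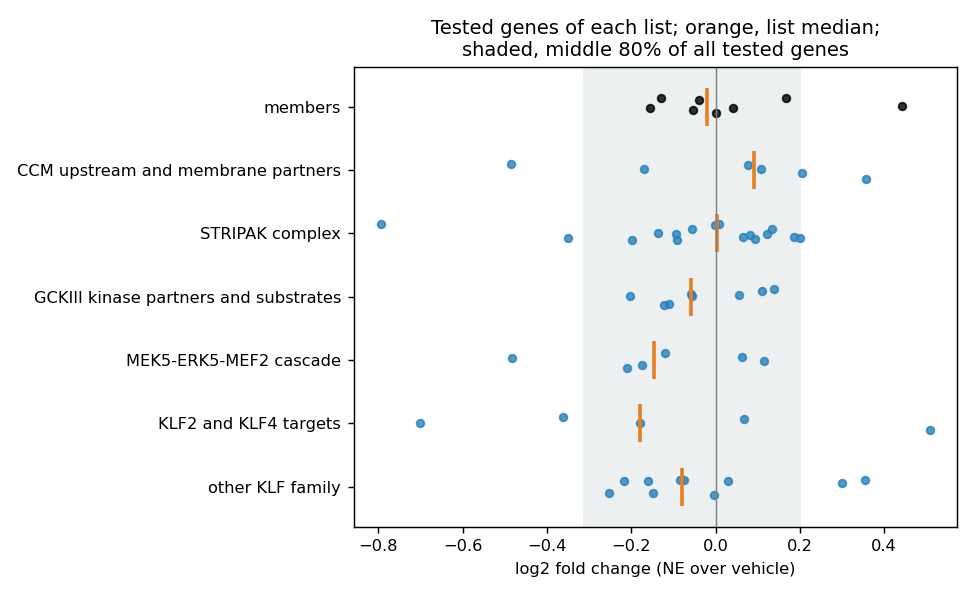
Log2 fold changes (NE over vehicle) of the tested genes of each list, with the 8 tested CCM genes in black at the top, orange lines for list medians and shading for the middle 80% of all tested genes, from -0.31 to 0.20. List medians lie between -0.18 and 0.09, and Pdcd10 is the rightmost of the black points, at 0.44.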

How the data were processed

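Per the labels and the column names, the authors deposited raw read counts per gene, one column for each of the 4 libraries of total RNA (NEBNext Ultra II kit, NovaSeq X). The build is GRCm39, per the submitters' processing notes. Aligner, counter, annotation and strandedness: not given in the sources used here. Columns were matched to samples by the library descriptions.

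The fit used edgeR 4.0.16 (R 4.3.3) on these counts: filterByExpr (minimum count 10, total 15), TMM scaling, quasi-likelihood test of NE against vehicle with group as the only term, Benjamini-Hochberg over 11419 genes, calls at an adjusted p under 0.05. SE is the size of the log2 fold change over the root of its F value, with moderated degrees of freedom for 95% intervals. CPM uses TMM-scaled totals, and 3 counts equal 0.164 to 0.202 CPM. Intervals and floors cover counting error only as far as reads are independent molecules. Lengths and exon overlaps came from GENCODE M21 by gene identifier. The procedure was tested on simulated data.

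The 9 genes, the 6 pathway lists, the marker lists (Club cell, epithelial, endothelial, fibroblast, leukocyte) and the tests were chosen with earlier results of these data known. A further list is not reported here. Text names the 9 genes, the called genes of each pathway list or else its 3 smallest p, the 5 genes most like Pdcd10, its neighbours, Actb and Gapdh. Genes named beyond these serve as background levels or markers and were chosen after their values were seen. Alternatives were DESeq2 size factors, total counts, no filter, a stricter filter (10 counts in every library of a group, mean 1 CPM), DESeq2 1.42.0, limma 3.58.1 voom, a replicate block, removal of the length trend, each library left out (lone libraries taken to vary like the other group) and other lengths.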

Additional observations from a re-analysis of the deposited data

How the results depend on the processing

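Of 96 alternative values for the log2 fold changes of the 8 tested genes, 92 moved by less than the spread between replicates. With a library left out this was largely fixed in advance. Losing 1 of 2 libraries shifts a group mean by about that spread or less. The count of 92 is therefore no measure of stability. Pdcd10 and Stk24 stayed positive in all 12 settings and Krit1 and Klf4 negative in all 12, while Ccm2, Stk25, Map3k3 and Klf2 took both signs. The other counts depended on the setting. Genes called higher and lower numbered 12 and 120 with total counts as scaling, 84 and 225 with no low-count filter, 24 and 51 with DESeq2 (which gave no adjusted p for 3764 genes, Klf2 among them) and 4 and 29 with the length trend removed. With that trend removed, 0 of the 8 genes were called higher and Ccm2 stood at -0.040. With no filter 1 pathway gene was called lower (Thbs1). The replicate numbers were not shown to pair the libraries (r = -0.0649 between deviations of same-numbered libraries over 11419 genes), and with the replicate block 84 genes were higher and 236 lower, and 1 pathway gene was higher (Aqp1) and 1 lower (Thbs1).

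Leaving out each library in turn gave 0 to 311 genes higher and 1 to 430 lower, 0 to 1 of the 8 genes higher and 0 to 1 lower, and 0 to 2 pathway genes higher and 0 to 3 lower. The fewest calls came without NE replicate 2, where Pdcd10 was not called, and the most without vehicle replicate 2, where Klf4 was called lower. The fold change then ran from 0.32 to 0.55 for Pdcd10, from -0.19 to -0.064 for Krit1 (without vehicle replicate 2 and without vehicle replicate 1) and from -0.34 to 0.33 for Klf2. The cause was not tested. The longest annotated transcript gave the same length for the 9 genes. The union of exons, chosen after seeing the data, gave mean levels of 23.4 CPM per kb for Pdcd10, 2.25 for Krit1, 13.2 for Ccm2, 14.4 for Stk24, 8.37 for Stk25 and 17.7 for Map3k3. Stk26 had too few counts for a fold change at this depth.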
